A study of Rattus norvegicus with 16 samples.

Results

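Short interspersed elements (SINEs) were examined as a source of small RNA counts in testicular germ cells (GCs) of rats. The animals ate either a diet rich in fat (HFD) or the control diet (CD). The members were the repeat names of the small RNA repeat counts that begin with B1, PB1, B2_, B3, B4, ID, BC1, RSINE, MIR or AmnSINE, whatever their counts. This gave 39 names of the 997 repeat names listed. Of these, 33 were rodent SINEs (13 B1 and PB1, 8 B2, 2 B3, 2 B4, 7 ID and 1 RSINE name) and 6 formed an older MIR group (4 MIR and 2 AmnSINE names). No name began with BC1. All 39 names had counts and averaged 1 count or more per library, the filter for testing.

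The GCs came from testes of Sprague-Dawley males that carry an eGFP transgene in the germ line, and were isolated by FACS on eGFP. All males were 19 weeks old and had eaten their diet since weaning. The labels give the HFD as 40% and the CD as 10% of calories from fat, and the study's text gives a somewhat higher fat content for the HFD. From each diet 4 small RNA libraries were made. The sorted fraction was not separated by stage, so that fewer cells of a stage and less RNA per cell cannot be told apart in any value below. Repeat counts summed to between 2363595 and 3269169 per library.

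SINEs are short retroelements that encode no protein and are copied by the machinery of LINEs. Most carry an internal promoter of RNA polymerase III, because they descend from small structural RNAs. B1 descends from 7SL RNA, B2, ID and MIR from tRNAs, and AmnSINE from a 5S rRNA joined to a tRNA. B4 and RSINE1 join ID-like and B1-like sequence. The B and ID families spread in rodents, whereas MIR (mammalian-wide interspersed repeat, not to be confused with microRNA) and AmnSINE stopped moving long ago and are shared across mammals. In testicular GCs the main small RNAs of this length are piRNAs, which guide PIWI proteins to transposon and other transcripts, and many piRNAs come from a few long clusters that contain transposon copies.

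SINE names held 23.3% of all repeat counts, 5166717 counts in the 8 libraries, on 19.6% of the annotated repeat bases. Rodent SINEs made up 14.7% of repeat counts on 1373529 copies, and the MIR group 8.60% on 118595 copies. The most counted names came from both groups: MIRb took 20.5% of the SINE counts, B1_Mur3 12.1% and MIR 7.02%. MIRb and B1_Mur3 together held 32.6% of SINE counts and the 5 most counted names 51.6%. To compare names of different length, counts were divided by the annotated kb of the name and by the repeat counts of the library. The resulting density is in counts per kb per 1000000 repeat counts.

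The MIR group was covered far more densely than rodent SINEs. In HFD libraries the summed density of the MIR group was 6.26, 6.15, 5.96 and 5.89, and in CD libraries 6.52, 6.11, 5.75 and 6.14. Rodent SINEs had densities of 0.820, 0.820, 0.820 and 0.800 with the HFD, and 0.801, 0.812, 0.825 and 0.837 with the CD. The 2 groups therefore lay apart in each of the 8 libraries. The MIR group was 7.46-fold denser, a log2 ratio of rodent over MIR of -2.90 ± 0.065 (SD, n = 8; two-sided exact paired permutation test, p = 0.0078, the smallest this test can give; adjusted p = 0.0078 over 4 ratios). The median name of each group gave nearly the same ratio (-2.89), and so did densities per copy (-2.76). Leaving out the most counted name of each group, an alternative chosen after the data were seen, gave -2.68.

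The MIR group was close in density to the similarly old LINE names, and rodent SINEs lay above the rodent L1 names. Names beginning with L2, L3 or CR1 (7 ancient LINE names; L2 supplied the machinery for MIR) had a density of 5.67 ± 0.12 (SD, n = 8), against 6.10 ± 0.24 for the MIR group. Their ratio was 1.07-fold, a log2 ratio of 0.10 ± 0.036 that was above 0 in all 8 libraries (two-sided exact paired permutation test, adjusted p = 0.0078). Rodent L1 (32 names, the LINE family that copies rodent SINEs) had a density of 0.175 ± 0.0027, so that rodent SINEs were 4.68-fold denser (log2 ratio 2.23 ± 0.014, the same exact test, adjusted p = 0.0078). SINEs as a whole were 1.25-fold denser than all other repeat names (log2 ratio 0.32 ± 0.029, the same exact test, adjusted p = 0.0078).

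These 3 SINE to LINE or SINE to other ratios turned over when counts were divided by copies in place of kb. Mean copy length was 131 bases for rodent SINEs and 698 for rodent L1, 119 for the MIR group and 153 for ancient LINEs, and 130 for all SINEs and 411 for all other names. Per copy the log2 ratios were -0.19 for rodent SINEs over rodent L1, -0.25 for the MIR group over ancient LINEs and -1.34 for SINEs over other names (exact test, p = 0.0078 for each). The test gave the same p per kb with the opposite sign. It measures how steady a ratio is over the libraries, so its p does not decide between the scales. The order of rodent SINEs and the MIR group kept its direction on both scales. By the study's methods only uniquely aligned reads were counted. How far the loss of reads that fit several copies differed between names was not tested. This holds for rodent SINEs against the MIR group and for single names such as ID2 and ID_Rn1.

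**Figure D1:**
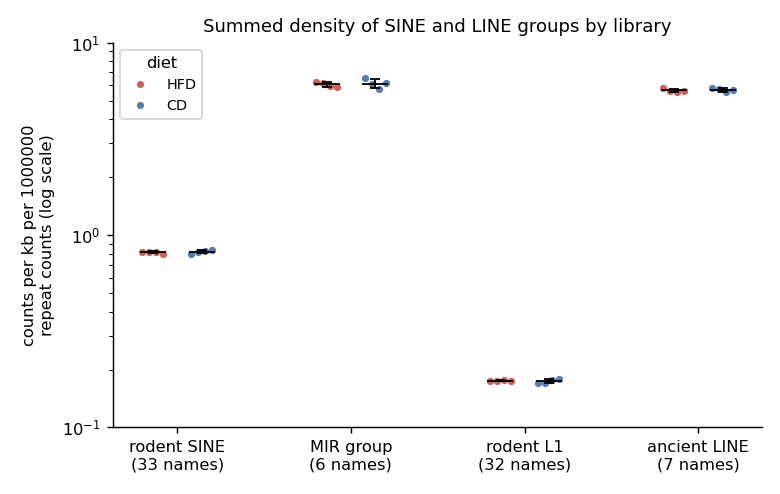
Summed density (counts per kb per 1000000 repeat counts, log axis) of rodent SINE, MIR group, rodent L1 and ancient LINE names; points are the 4 HFD and 4 CD libraries, bars the mean ± SD. The MIR group and ancient LINEs lie near 6, rodent SINEs near 0.82 and rodent L1 near 0.175 on both diets.

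Within the MIR group, the 4 MIR names carried nearly all counts. MIRb had the highest mean density of all SINE names (9.11), with 9.23, 9.08, 8.85 and 8.71 on the HFD and 10.4, 9.41, 8.35 and 8.90 on the CD. In CD replicate 3, B1_Mur3 was denser (8.59). The highest and the lowest value of MIRb were both CD libraries, replicates 1 and 3. MIRc followed with a mean density of 6.10 and varied by only 1.15% (coefficient of variation over the 8 libraries). MIR3 had a mean density of 4.74 and MIR one of 3.42. AmnSINE1 and AmnSINE2 are rare, with 1342 and 423 annotated copies, and were much lower than MIR3. AmnSINE2, the lowest of the group, had a density of 0.463 and between 0.346 and 0.713 in single libraries.

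B1 was the richest rodent family, and 1 name stood apart in it. B1 names together had a density of 1.68 ± 0.037 (SD, n = 8), and held 7.80% of repeat counts. B1_Mur3 reached 7.88, 8.21, 8.23 and 8.29 on the HFD and 7.64, 8.08, 8.59 and 8.36 on the CD, next to MIRb at the top of all SINE names. It was 3.84-fold denser than the next B1 name, B1_Mur4, with a mean density of 2.13. B1_Rn had a mean density of 1.87 and B1F one of 1.55. The monomeric PB1 names, the ancestors of B1, lay between 0.531 for PB1D11 and 0.944 for PB1D7. B1_Mur2 (0.817) and B1_Mur1 (0.801) fell within that range, and B1F1 was the lowest B1 name at 0.385.

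ID names differed widely in density. ID2 had 5.63, 5.29, 4.97 and 5.08 on the HFD and 5.68, 5.27, 5.04 and 5.75 on the CD. ID_Rn1 had between 0.0476 and 0.0586, so that ID2 was 105-fold denser than ID_Rn1. ID2 has 5643 annotated copies and ID_Rn1 has 59553. ID_B1, which joins ID and B1 sequence as B4 does, was placed in the ID family by its name. It gave 70.2% of the ID family's counts at a density of 0.913. Without ID_B1 the family's density was 0.357 (an added view, chosen after the values were seen). ID4 had a mean density of 0.749.

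With ID_B1 counted in the ID family, B2 names were the least covered rodent family, with a family density of 0.420 ± 0.012 (SD, n = 8). Without ID_B1 the ID names were lower, at 0.357. Among B2 names, B2_Rn2 was the exception, at 1.57, and B2_Rat3 followed at 0.771. B2_Rat2 had a density of 0.348 and B2_Rat4, the name with the most B2 counts, 0.335. B2_Rn1 and B2_Rn had 0.0533 and 0.0428, and B2_Rn was the lowest rodent name among those averaging 10 or more counts. For B2_RnY there were 2, 1, 2 and 4 counts in the HFD libraries and 0, 1, 1 and 1 in the CD libraries, at or close to a floor of 3 counts per library.

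The remaining rodent families have only 1 or 2 names each, too few to compare their evenness from name to name with that of larger families. B3 had a density of 0.544, B3A 0.421, B4 0.508, B4A 0.474 and RSINE1 0.529. Each varied by less than 3% of its mean over the 8 libraries, as did some names of other families, such as ID4 (2.64%). The 11 names that carry Rn or Rat for the rat genome ranged from 0.0078 to 1.87 with a median of 0.291. The other 22 rodent names ranged from 0.385 to 8.16 with a median of 0.733, a grouping made after the values were seen and given as a description only. Across the 39 names, density had a Spearman rho of 0.021 with the number of copies and of -0.13 with mean copy length, both descriptions over names that share the same libraries.

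**Figure D2:**
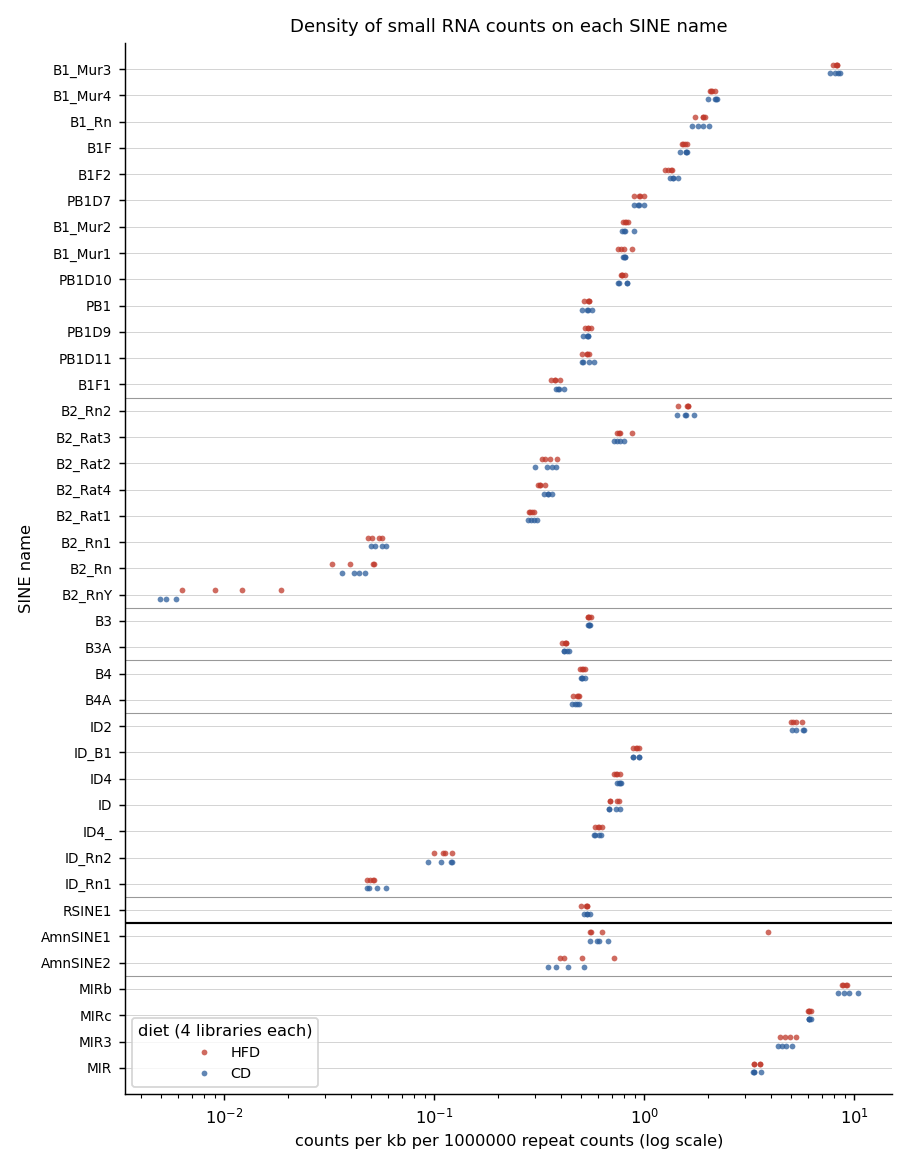
Density of each SINE name (counts per kb per 1000000 repeat counts, log axis) in the 4 HFD and 4 CD libraries, ordered by family, with the MIR group below the thick line. Points of both diets overlap for most names, AmnSINE1 has 1 HFD library at 3.88, and the CD library of B2_RnY with 0 counts is not drawn.

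The question put by the design was whether an HFD changed these small RNAs. No SINE name was called different between diets. In edgeR's quasi-likelihood test over 755 repeat names, 0 of 39 SINE names had an adjusted p under 0.05, against 0.132% of all names tested, and the smallest adjusted p of a SINE name was 0.992. One SINE name had an unadjusted p under 0.05, against 3.58% of all names. DESeq2, with or without shrunken fold changes, also called 0 SINE names and gave 1 name at an unadjusted p under 0.05. It gave no p for AmnSINE1. The log2 fold changes (HFD over CD) had a median of 0.0053, the same as over all 755 names, and 35 of 39 lay within 0.1 of 0.

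The intervals were narrow for most names. For 33 of the 39 names the whole 95% interval of the log2 fold change lay within 0.2 of 0, against 204 of all 755 names. Among names that averaged 1000 or more counts this held for all 32 SINE names and for 181 of 221 names in all. For MIRb the log2 fold change was -0.036 (95% interval -0.17 to 0.10), for B1_Mur3 0.0083 (-0.073 to 0.089), for ID2 -0.043 (-0.15 to 0.069) and for B3 0.0052 (-0.058 to 0.069). Of the 39 names, 25 had a log2 fold change above 0 with TMM scaling (64.1%, against 53.0% of all names) and 17 with library totals alone (43.6%, against 48.3% of all names), so that the split between higher and lower names has no fixed direction.

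The 3 SINE names with the smallest p were B2_Rat4, AmnSINE1 and B2_RnY. B2_Rat4 had densities of 0.335, 0.320, 0.313 and 0.318 in HFD libraries, and 0.346, 0.365, 0.332 and 0.347 in CD libraries. Only HFD replicate 1 and CD replicate 3 overlapped, by a narrow margin. Its log2 fold change was -0.10 with an SE of 0.041, and the adjusted p by edgeR was 0.992. B2_RnY was the 1 SINE name of 39 whose normalised values did not overlap between diets, against 2.25% of all names. It was higher with the HFD, as were 1.46% of all names, and 0 SINE names were lower without overlap, against 0.795% of all names. The B2_RnY value rests on 9 HFD and 3 CD counts, a ratio of 2.92 with an exact 95% counting interval from 0.728 to 16.7.

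**Figure D3:**
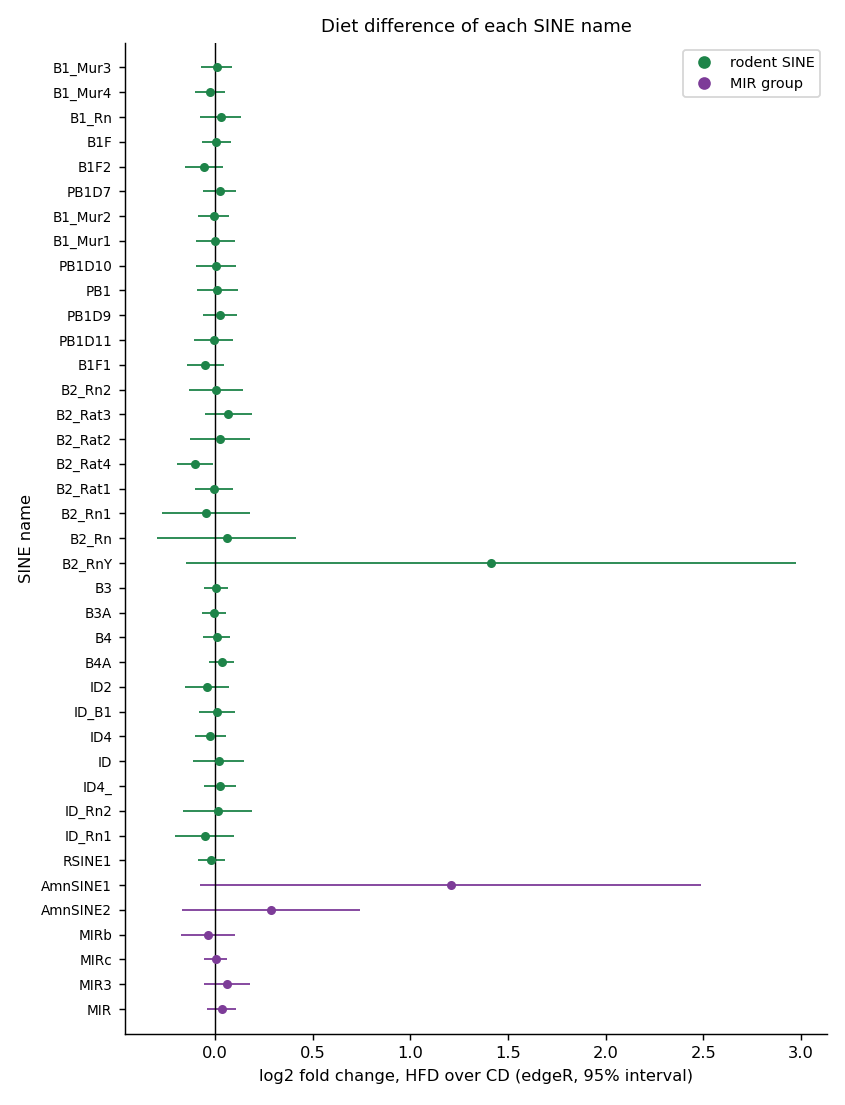
Log2 fold change of each SINE name, HFD over CD, from edgeR with its 95% interval; green marks rodent SINEs and purple the MIR group. Most intervals are narrow and cross 0, and the wide ones belong to B2_RnY, AmnSINE1 and AmnSINE2.

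The fold change of AmnSINE1 rested on 1 library. Its densities were 3.88, 0.552, 0.560 and 0.631 on the HFD and 0.670, 0.605, 0.592 and 0.554 on the CD. HFD replicate 1 had 1186 counts, while the other 7 libraries had between 164 and 252. The log2 fold change was 1.21 (SE 0.58, edgeR adjusted p = 0.992) with all libraries and -0.044 (edgeR adjusted p = 0.986) without HFD replicate 1.

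In the piRNA counts the same library was high at 1 place on an AmnSINE1 copy. A single piRNA entry listed at 1 place, rat_piRNA_147725 (rn5, chr8:57394809-57394833), overlapped an AmnSINE1 copy (chr8:57394770-57394824, plus strand), by 16 bases. Its counts were 335, 22, 18 and 25 on the HFD and 18, 24, 23 and 21 on the CD, so that HFD replicate 1 was 17.6 times the mean of the other 7 libraries after scaling to the piRNA totals. Among the 47 other single-place entries within 5000 bases on either side that averaged 10 or more counts, the median ratio was 1.07. The highest was 3.63, at rat_piRNA_168473, which starts 539 bases away, and the next was 2.70. HFD replicate 1 had 967 more AmnSINE1 counts than the median of the other libraries, and 313 more on this entry. These entries were examined because of the AmnSINE1 values and were not tested.

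**Figure D4:**
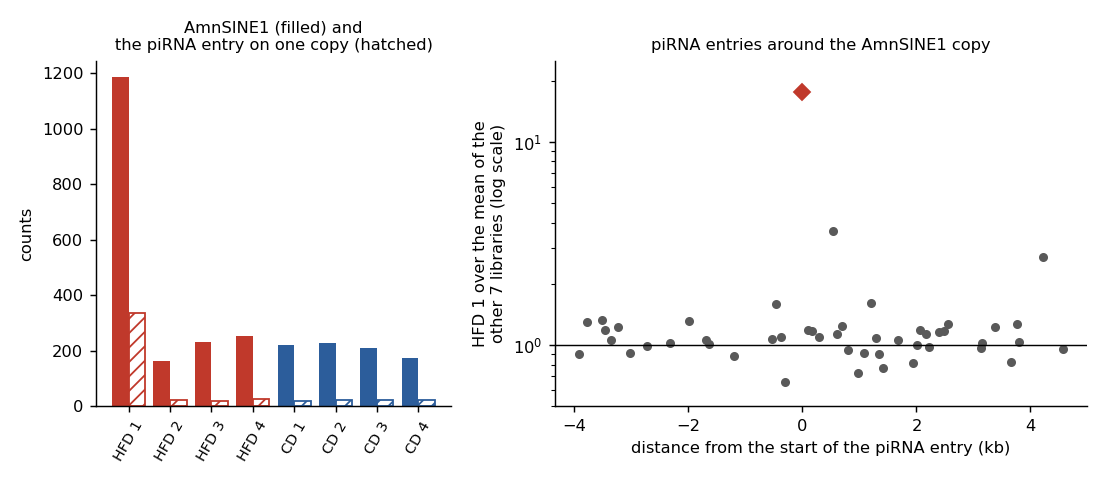
Left, counts of AmnSINE1 (filled) and of the piRNA entry on one of its copies (hatched) in each library; right, the ratio of HFD replicate 1 to the mean of the other 7 libraries (log axis) for piRNA entries within 5 kb, by distance from that entry (red diamond). The entry stands at 17.6, and the median of its 47 neighbours is 1.07.

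No difference between diets was detected for whole SINE groups. All SINEs took 23.6, 23.5, 23.2 and 22.7% of repeat counts on the HFD and 23.7, 23.3, 23.0 and 23.8% on the CD. Wilson 95% intervals reached at most 0.054 percentage points to either side of a single library's share, so that the spread between libraries was larger than counting error. HFD libraries averaged 23.3% ± 0.38 and CD libraries 23.4% ± 0.35 (SD of 4 libraries), a difference of -0.16 percentage points (exact permutation p = 0.543, two-sided). Rodent SINEs took 14.7% ± 0.18 and 14.8% ± 0.28 (difference -0.068, exact permutation p = 0.771). The MIR group took 8.57% ± 0.24 and 8.67% ± 0.45 (difference -0.095, exact permutation p = 0.686).

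The families showed the same picture. B1 took 7.78% ± 0.059 in HFD and 7.82% ± 0.25 in CD libraries (SD of 4), and the CD libraries ranged more widely, from 7.52 to 8.05%. B2 took 0.807% ± 0.023 and 0.818% ± 0.025, and RSINE1 0.751% ± 0.022 and 0.766% ± 0.019. ID, whose counts are mostly those of ID_B1, took 1.93% ± 0.057 and 1.94% ± 0.053. B3 took 1.94% ± 0.029 and 1.95% ± 0.022, and B4 1.48% ± 0.037 and 1.47% ± 0.029. The exact permutation p of all 11 groups and families lay between 0.343 and 0.857, with an adjusted p of 0.857 for each. With 4 against 4 libraries the exact permutation test cannot go below p = 0.0286.

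For the balance between rodent SINEs and the MIR group, too, no difference was detected. The log2 ratio of rodent SINE over MIR density was -2.93, -2.91, -2.86 and -2.88 on the HFD and -3.03, -2.91, -2.80 and -2.87 on the CD. The difference was 0.0083 (two-sided exact permutation test, p = 0.857), less than the SD of the HFD (0.031) and of the CD libraries (0.094).

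**Figure D5:**
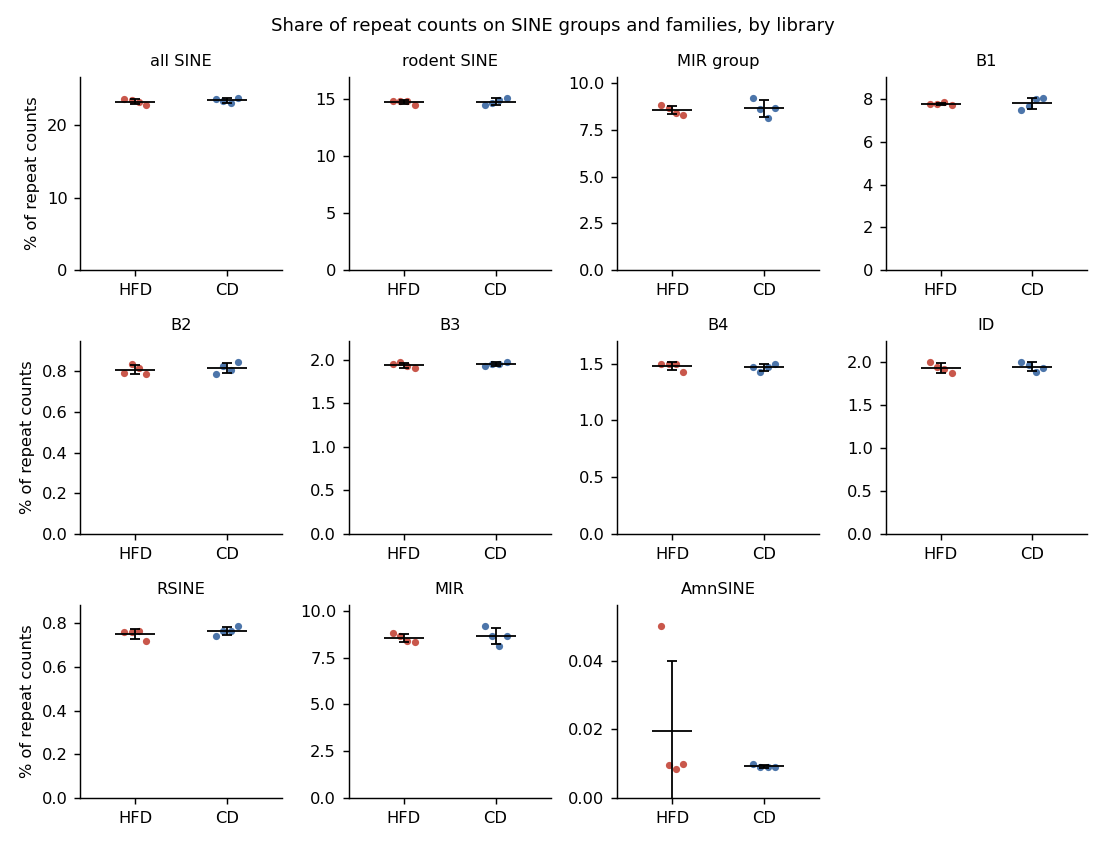
Percent of repeat counts on all SINEs, on rodent SINEs and the MIR group, and on each family, per library (points) with mean ± SD (bars), from 0 on each axis. HFD and CD overlap in every panel, and the wide HFD bar of AmnSINE comes from 1 library at 0.0504%.

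Repeat counts merge all copies of a name and both strands, whereas piRNA entries have a position. Of 50830 piRNA entries listed at 1 place, 1685 lay wholly inside an annotated SINE copy, 288 of them with counts. They fell on 437 SINE copies of the 1492124 annotated, and 233 of these copies had counts. Only reads on the strand opposite to an entry's listed strand were counted, so the counts do not measure the listed piRNAs themselves. The entries had 177968 counts in all. Set against the repeat counts, those in rodent SINEs came to 4.47% ± 0.072 and those in the MIR group to 1.70% ± 0.10 (SD, n = 8). The 2 percentages did not overlap in any library, with rodent SINEs from 4.36 to 4.60% and the MIR group from 1.56 to 1.90%, and other repeat names had 4.34% ± 0.065. These percentages set 2 separate counts side by side and are not shares of the same reads: piRNA counts cover 1 strand, while repeat counts cover both and leave out reads on overlapping copies.

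The names differed strongly in this percentage. MIRb had 3671 counts on piRNA entries, which equalled 0.347% of its repeat counts, and B1_Mur3 had 0.937%. ID2 had 1 such count against 48066 repeat counts. B1_Rn had 28223 such counts or 9.90%, B1F2 16.8% and B1F1 16.7%. In PB1 the counts on piRNA entries equalled 56.4% of the repeat counts, and the copy at chr15:246916-247029 (minus strand) alone gave 7286 counts, 53.4%. That copy was also the steadiest of the 20 most counted copies, with a coefficient of variation of 2.35% over the libraries. For 7 names no single-place entry lay inside a copy, and for 4 more (B2_Rn2, ID, ID_Rn2 and PB1D11) the entries were at 0 counts in these libraries. Reads from the plus strand of the genome were not counted for piRNAs, so low or 0 counts do not show that piRNAs were absent.

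A few copies carried much of the signal. The B1_Rn copy at chr20:15896507-15896655 (rn5, plus strand) held 23167 counts, 13.02% of all SINE piRNA counts, and the 5 most counted copies 34.3% (of overlapping copies only 1 was taken). In this copy rat_piRNA_166324 (chr20:15896548-15896575) had 1560, 1484, 2033 and 1966 counts on the HFD and 1685, 1761, 1940 and 1640 on the CD. Its neighbour rat_piRNA_64558 (chr20:15896609-15896636) had 9098 counts in all. The second copy was an old one, a MIR at chr1:136166229-136166412 (plus strand), where rat_piRNA_163546 (chr1:136166344-136166373) had 13274 counts, nearly all of the 14395 in MIR. Next were rat_piRNA_163960 in a B1F2 copy (chr1:132046268-132046293) with 8349 counts, and rat_piRNA_164287 (chr12:31960749-31960776) with 8267, which lies in an ID_B1 copy and an overlapping PB1D10 copy.

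Counted reads on these entries all came from the minus strand of the genome, so the strand of the copy tells sense from antisense. Of the SINE entries with counts, 176 lay inside plus-strand copies and 114 inside minus-strand copies (an entry inside 2 copies can be in both). Entries inside plus-strand copies, whose reads are antisense to the SINE, held between 63.1 and 66.1% of the counts. Without the B1_Rn copy on chromosome 20 the range was 57.3 to 61.0%. Entries inside other repeat copies had 62.3 to 66.2%. The SINE mean was 64.2% ± 1.3 for HFD and 64.4% ± 0.88 for CD libraries (SD of 4; two-sided exact permutation p = 0.886).

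No difference between diets was detected in single-place SINE piRNAs. They took 2.95, 2.88, 2.82 and 2.85% of single-place piRNA counts on the HFD and 2.88, 2.85, 2.88 and 2.93% on the CD. The means were 2.88% ± 0.054 and 2.89% ± 0.036 (SD of 4 libraries, two-sided exact permutation p = 0.771). Of 200 SINE entries averaging 1 count or more, edgeR called 0, as it did among all 7818 piRNAs tested (0% called); without a filter on low counts edgeR called 28 of 10622 piRNAs, and 0 of them in SINEs. DESeq2 with and without shrunken fold changes also called 0 SINE entries. At an unadjusted p under 0.05 edgeR had 5 of 200, against 2.99% of all piRNAs, and DESeq2 had 2.

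The SINE piRNAs with the smallest p were low in counts. Entry rat_piRNA_162314 in a PB1 copy (chr15:212332-212357) had 13, 19, 19 and 22 counts on the HFD and 14, 5, 11 and 7 on the CD (log2 fold change 0.90, SE 0.32, edgeR adjusted p = 0.996). The groups overlapped. For rat_piRNA_76450 in a B3A copy (chr15:254239-254268) the log2 fold change was 0.78 (SE 0.30, edgeR adjusted p = 0.996), and for rat_piRNA_150661 in an ID_B1 copy (chr12:31960693-31960716) it was -1.75 on 18 counts in all (SE 0.67, edgeR adjusted p = 0.996).

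One SINE copy had a wide spread between libraries. A B1_Mur1 copy at chr8:57385716-57385859 (plus strand) had 1583, 837, 1012 and 835 piRNA counts per 1000000 single-place counts on the HFD and 1605, 1313, 782 and 560 on the CD. High and low libraries occurred on both diets. Its coefficient of variation was 36.6%, against 16.2% for the next of the 20 most counted copies and a median of 8.84%. It was singled out after the values were seen, and a diet difference was not tested for it.

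A few annotated miRNA hairpins also overlapped SINE copies, 8 in all, of which rno-mir-6324 lay wholly inside an RSINE1 copy (rn5, chr11:39913805-39913925). The mature miRNA of that hairpin and that of rno-mir-3473, of which 18 bases lay on a B4 copy (mature at chr13:49803983-49804004), are shown as examples of annotated small RNA sequence that lies on a SINE. Sequences are from RefSeq (GRCr8), with the seed, bases 2 to 8, in capitals.
rno-miR-6324: uCAGUAGGccagacagcaagcac
rno-miR-3473: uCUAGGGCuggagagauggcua
The 8 hairpins had 5 counts together in the 8 libraries, all on rno-mir-1956, which overlaps a MIRc copy by 13 bases. Reads under 25 nt had been removed and only reverse-strand reads counted for miRNAs, so that miRNAs on their own strand were not measured here.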

How the data were processed

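Small RNA of FACS-sorted GCs was sequenced from 4 HFD and 4 CD rats, and each library's group and number were taken from its labels. The authors trimmed adaptors to a minimum length of 25 nt, aligned reads to rn5 with Butter and counted uniquely aligned reads with featureCounts (version 1.4.6 and minimum mapping quality 1 per the file headers). The values are the raw read counts that the authors deposited, on either strand for repeats and on the reverse strand for piRNAs and miRNAs. Reads overlapping 2 features were left unassigned, and no normalization had been applied. The small RNA fraction is 22 to 30 nt by the study's methods. In CD replicate 4 the count column names another library number than the file, and the sample was taken from the file record.

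The members and lists were chosen with earlier results of these data known. Names with a mean count of at least 1 were tested with edgeR 4.0.16 under R 4.3.3 (quasi-likelihood F test, TMM scaling, diet only, Benjamini-Hochberg over all 755 repeat names or 7818 piRNAs, threshold 0.05), the SE being the log2 fold change over the square root of F. The study's DESeq2 test (1.42.0) was an alternative. Single values per library were compared by exact permutation over 70 labellings, and ratios within libraries by exact sign changes over 256 combinations. piRNA entries at 1 place were intersected with repeat copies with bedtools 2.31.1. The Wilson intervals, the exact counting interval and the floor of 3 counts cover counting error only, since reads carry no molecular identifiers. The edgeR intervals rest on the quasi-likelihood SE, which also takes in the spread between libraries. Nothing in the labels says more than that libraries are separate samples, so p-values measure the spread between these libraries. The tests were tried on simulated data first. Names given individually were the 3 most counted of each family, those with the smallest p, and the highest and lowest densities with a mean count of at least 10. For piRNAs they were the 5 most counted and the 3 with the smallest p. Others are said to be chosen after their values were seen or stand for a family's range. Gene identifiers of the mRNA tables could not be paired with symbols here, so cell type markers were not checked and the mRNA counts were not used.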

Additional observations from a re-analysis of the deposited data

Results flagged for a closer look

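In 9 of 104 groups of 4 libraries, 1 library lay far from the other 3 by Dixon's test, of which chance flags about 1 in 20. AmnSINE1 stood at a density of 3.88 in HFD replicate 1 against 0.552 to 0.631 in the other HFD libraries, and the AmnSINE share at 0.0504% against 0.00856 to 0.00988%. HFD replicate 4 was low for rodent SINEs (14.4% of repeat counts against 14.8% in each of the others), for the B4 family (1.42% against 1.497 to 1.498%) and for RSINE (0.718% against 0.759 to 0.765%), which is also the density of RSINE1 (0.501 against 0.530 to 0.534). In the CD group, B1F was low in replicate 1 (1.48 against 1.57 to 1.59), MIR was high in replicate 4 (3.61 against 3.30 to 3.34), and B2_RnY had a density of 0 in replicate 1, where 1 count would have given about as much as the others (0.0049 to 0.0059).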

How the results depend on the processing

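The counts of 0 SINE names and 0 SINE piRNAs called held under the alternatives run: DESeq2 with and without shrinkage, RLE size factors, library totals, a mean count of at least 10, no filter, a robust fit and each library left out. With either DESeq2 setting AmnSINE1 had no p. Over all features, calls stayed at 0 or 1 for repeat names but rose from 0 of 7818 piRNAs to 28 of 10622 with no filter, and to 1 without CD replicate 3. Between 0 and 2 SINE names had an unadjusted p under 0.05. Rodent SINE over MIR kept its direction and stayed under 0.05, from -2.91 to -2.88 with each library left out (exact p = 0.016, the smallest 7 libraries can give). The remaining ratios ranged from 2.22 to 2.23, 0.095 to 0.11 and 0.32 to 0.33, but per copy became -0.19 (rodent SINE over rodent L1), -0.25 (MIR group over ancient LINE) and -1.34 (SINE over other names). The log2 fold change of AmnSINE1 ran from -0.044 (without HFD 1) to 1.47. Diet differences near 0 changed sign with 1 library left out, and none passed its test. In percentage points they ran from -0.30 to 0.0085 for all SINEs (above 0 without HFD replicate 4), -0.17 to 0.041 for rodent SINEs (HFD 4 or CD 4), -0.28 to 0.091 for the MIR group and -0.29 to 0.081 for MIR (CD 1), -0.14 to 0.043 for B1 (CD 3 or CD 4), -0.033 to 0.013 for ID (HFD 4 or CD 1) and -0.033 to 0.0089 for SINE piRNAs (HFD 3 or CD 4). SINE piRNAs gave 0.0076 when 1 base of overlap sufficed. The diet difference of the rodent over MIR log2 ratio ran from -0.033 to 0.043 (below 0 without HFD 3 or CD 1), was -0.077 as a median over names, and -0.028 without B1_Mur3 and MIRb, added after seeing the data. The cause of these sign changes was not tested.

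HFD and CD libraries share replicate numbers, and the labels do not say that these pair them. Same-numbered deviations correlated at 0.19, 0.076, 0.072 and 0.010 over repeat names, and differently numbered ones at -0.16 to 0.096. Over piRNAs the same-numbered values were 0.165, -0.011, 0.092 and -0.049, and the differently numbered ones ran from -0.12 to 0.133. Whether the numbers mark a shared batch was not tested. With the replicate block 0 SINE names and 0 SINE piRNAs were called, and all SINEs differed by -0.16 percentage points (exact p = 0.875). Over all features the block moved calls from 0 to 8 of 7818 piRNAs, and left 1 of 755 repeat names. It changed no other call among SINE results. B2_RnY is limited by depth.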
